A study of Komagataella phaffii with 72 samples.

Results

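The comparison concerned 2 transformants of the same K. phaffii strain that made the same secreted protein, the cytokine G-CSF in recombinant human form (rhG-CSF), with very different amounts of transgene mRNA. Clone 13 of Y-48124 was chosen as the high clone and clone 14 as the low clone by the level of the rhG-CSF mRNA, and clone 16 was shown as the intermediate. Clones 13 and 14 contributed 3 cultures each, labelled A, B, and C, which make 6 of the 72 libraries of the series. In the whole series, 4 strains made either rhG-CSF or recombinant human growth hormone (rhGH), each strain being represented by 3 clones of each product with 3 cultures apiece. The study picked 3 clones per strain to range from low to high copy number, but copies are not given by clone in the labels and were left aside.

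Y-48124 is the banked NRRL form of X-33, a strain derived from GS115, and both carry substitutions in HIS4 and RCR2 that all clones described here share. X-33 carries a further substitution in RVB1. The transgene in every clone was placed under the AOX1 promoter at the AOX1 locus, and the row names point to the alpha secretion signal. All cultures, including those used for comparison, received 4% glycerol for 24 hr, followed by 1.5% methanol for another 24 hr. Besides the 3 rhG-CSF clones of Y-48124, the 3 rhGH clones of Y-48124 (clones 11, 12, and 13, with 9 libraries) and X-33 rhG-CSF clones 12, 13, and 16 were used. Each clone is a single transformant. A test between clones 13 and 14 therefore compares these 2 transformants, and the transgene level cannot be told apart from anything else that differs between them. The labels do not say whether cultures of a clone were grown on separate days, so the p-values measure only the spread between these cultures, which may be technical. In its growth data the study's supplement calls the replicates of a clone independent.

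K. phaffii can live on methanol as its only carbon source. Alcohol oxidase, the enzyme that starts methanol breakdown, is made from a gene whose promoter is nearly silent on glycerol and very strong on methanol, and for this reason transgenes are placed behind it. A secreted protein enters the endoplasmic reticulum, folds there, and passes through the Golgi to the medium. G-CSF is a cytokine that in mammals drives the formation of neutrophils and has no role in yeast.

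The RNA was measured by 3′ digital gene expression, in which reads are taken from the end of each mRNA and counted per gene. Total counts per library lay between 1089464 and 1590521 in clones 13 and 14, between 1134884 and 1464573 in clone 16, and between 439803 and 1412682 in the rhGH clones. The 6 libraries of clones 13 and 14 detected between 4991 and 5040 of the 5120 genes. By distance on log2(CPM + 1), where CPM is the usual depth-scaled count over all genes without the transgenes, 9 of the 9 libraries of the 3 rhG-CSF clones lay nearest to another culture of their own clone. The common coefficient of variation between cultures of a clone was 11.4% over the 3 clones, with 11.1% for clone 13 and 12.4% for clone 14 when each was fitted alone.

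The level of the rhG-CSF transgene, which chose the clones, is given as a description with no test. In log2(TPM + 1), the unit in which the authors deposited it, clone 13 stood at 12.93, 12.79, and 12.78 in cultures A, B, and C. Clone 14 stood at 9.85, 8.97, and 8.50. Clone 16 stood at 10.79, 10.95, and 11.10. The 3 clones did not overlap, and the means were 12.83 ± 0.09 for clone 13, 9.11 ± 0.69 for clone 14, and 10.95 ± 0.15 for clone 16 (SD, n = 3). On this scale clone 13 lay 3.73 above clone 14, or 13.2-fold, and clone 16 lay nearly midway, 1.84 above clone 14 and 1.89 below clone 13. Culture A of clone 14 was the highest of its clone, with 1001 counts against 536 and 570. The transcript made up between 0.673% and 0.756% of all counts in clone 13 and between 0.0358% and 0.0919% in clone 14.

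The same row read between 5.33 and 6.86 in the 9 rhGH libraries of Y-48124, which carry no rhG-CSF transgene, so clone 14 was above this background in each culture. The rhGH row in turn held 20 to 75 counts in the 9 rhG-CSF libraries. The source of these counts was not tested.

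The third transgene row, called the marker, did not follow the same order. Its counts were 166, 184, and 195 in clone 13, 18, 10, and 31 in clone 14, and 39, 13, and 22 in clone 16. Clone 13 was far above both other clones, which overlapped. In log2(TPM + 1) the marker averaged 7.84 ± 0.12 for clone 13, against 4.79 ± 0.54 for clone 14 and 5.08 ± 0.59 for clone 16 (SD, n = 3). Clone 16 was therefore an intermediate in rhG-CSF mRNA and close to clone 14 in marker mRNA. No transgene row entered the totals or tests below.

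**Figure D1:**
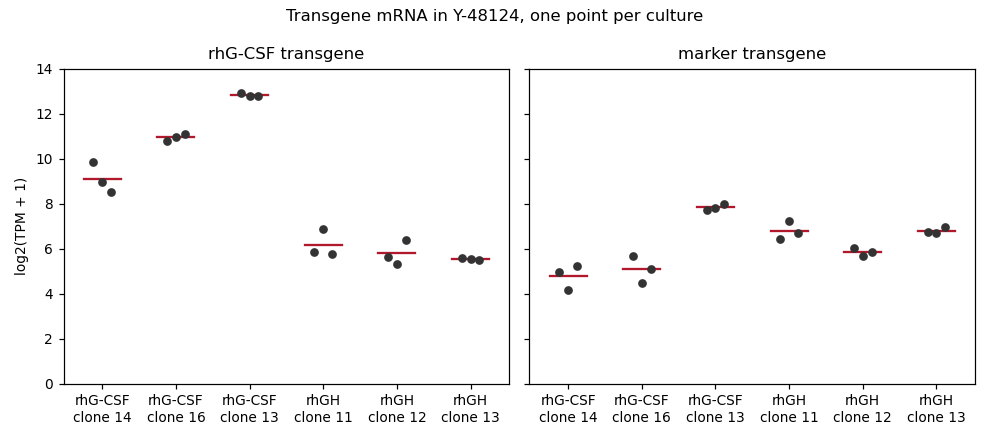
Level of the rhG-CSF transgene (left) and of the marker transgene (right) in log2(TPM + 1), with 1 point per culture and a line at the mean of each clone. For rhG-CSF the clones stand in the order 14, 16, 13 with means of 9.11, 10.95, and 12.83, while for the marker clones 14 and 16 overlap and clone 13 stands above them at 7.84.

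The first question was which host genes differed between the high and the low clone. In clone 13, 170 genes were higher and 220 were lower than in clone 14, out of 4762 genes tested, at an adjusted p under 0.05 by the quasi-likelihood test of edgeR after Benjamini-Hochberg adjustment. These 390 genes are 8.19% of those tested, with 3.57% higher and 4.62% lower. Most of the changes were small. The median log2 fold change was 0.67 for the genes that were higher and −0.59 for those that were lower, and 75 genes changed by more than 1 on the log2 scale, of which 43 were higher and 32 lower. After normalization the median over all genes tested was 0.00. The cultures of the 2 clones did not overlap in CPM for 383 of the 390 genes, against 25% of all genes tested. The calls were made on these same cultures, so this contrast largely follows from them and is a description.

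The count depended on the libraries included. Leaving out culture C of clone 13 left 251 genes, and leaving out culture A of clone 14, the culture with the most transgene mRNA of its clone, left 360. Of the 390 genes, 178 (75 higher and 103 lower) were called in each of the 6 fits that left out 1 culture, and 139 were called in these and in 9 fits with other settings. The sign turned in 0 of the 390 genes in these 15 fits. The balance between the directions among called genes was less stable. The excess of lower genes held with DESeq2 (166 higher, 205 lower) and with limma run on log2(CPM + 1) (179 higher, 226 lower). It shrank with DESeq2 size factors in edgeR (188 higher, 205 lower). For the deposited log2(TPM + 1) values, limma called 156 higher and 146 lower, so the excess was reversed. The shares of 3.57% and 4.62% therefore belong to the main fit.

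**Figure D2:**
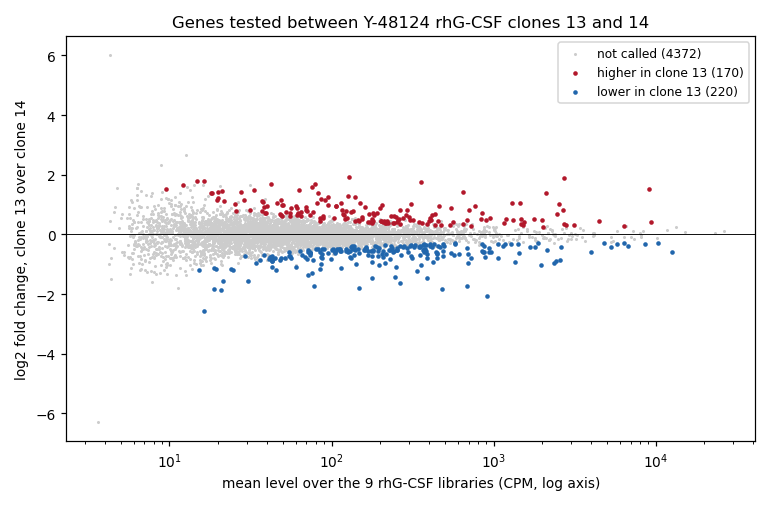
Log2 fold change of clone 13 over clone 14 against the mean level over the 9 rhG-CSF libraries in CPM (log axis), with 1 point per gene for the 4762 genes tested. Red points are the 170 genes higher in clone 13 and blue points the 220 lower ones at an adjusted p under 0.05. The largest fitted changes at the left edge are grey, which marks genes that were not called.

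Calls were concentrated among abundant genes. Of the 152 genes with a mean above 1000 CPM, 50 were called (32.9%), with 24 higher and 26 lower and a median size of 0.43 on the log2 scale. Between 100 and 1000 CPM, 220 of 1287 genes were called (17.1%), of which 135 were lower. Below 20 CPM, 14 of 937 genes were called (1.49%), with a median size of 1.40. Another 72 genes had a fitted change above 1 in size and were not called, and their median level was 9.70 CPM. The parts of counting error and of the spread between cultures in this were not tested.

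The 170 genes that were higher held 12.3%, 12.4%, and 13.2% of the gene counts in the 3 cultures of clone 13, and 7.63%, 7.91%, and 8.01% in those of clone 14. The 220 genes that were lower held 11.6%, 11.4%, and 11.0% in clone 13 and 16.4%, 16.3%, and 15.9% in clone 14. The genes were chosen on these same libraries, so the sums describe how much of the mRNA pool moved and are not a test. In libraries that played no part in the choice, the sum of the 170 genes was 11.9% ± 1.09 over the 9 rhGH libraries of Y-48124 (SD), 9.95% ± 0.795 in X-33 clone 13, and 8.30% ± 0.116 in X-33 clone 16 (SD, n = 3). The sum of the 220 genes was 12.3% ± 0.765 in the rhGH libraries, 13.0% ± 0.774 in X-33 clone 13, and 15.0% ± 0.203 in X-33 clone 16. In X-33 clone 12, which lay between those X-33 clones in rhG-CSF mRNA, the sums were 8.10% ± 0.167 and 14.8% ± 0.0812. By these sums, which abundant genes dominate, the rhGH libraries lay nearer to clone 13 than to clone 14. Counted gene by gene, 54.7% of the 170 genes and 33.2% of the 220 genes had an rhGH mean nearer to clone 14, beside 47.9% of all genes tested. For the 170 genes the count was thus close to an even split, while the sum lay nearer to clone 13.

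The identifiers of the deposited tables are paired with names for 8 genes only, through the supplement of the study, and its text describes another, GQ67_02041, as a cell wall gene. These 9 genes were looked at whatever their values. The roles given here are those of the S. cerevisiae genes of the same name. Of the 9, YDL218W was higher in clone 13, and CTR1, FRE1, and YFL040W were lower.

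CTR1 and FRE1 belong to metal uptake. CTR1 encodes a high-affinity copper transporter of the plasma membrane, and FRE1 a reductase that reduces iron and copper at the cell surface before they are taken up. CTR1 was at 769, 704, and 674 CPM in clone 13 and at 1106, 1062, and 1037 CPM in clone 14, with no overlap. The log2 fold change was −0.58 ± 0.08 (SE), with an adjusted p of 0.00018 by edgeR. FRE1 was at 272, 256, and 254 CPM in clone 13 and at 444, 413, and 397 CPM in clone 14, again without overlap. Its log2 fold change was −0.68 ± 0.09, with an adjusted p of 7.85e-05 by edgeR. Both genes thus read about 1.5-fold to 1.6-fold lower in the clone with more transgene mRNA.

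ZPS1, which in S. cerevisiae is induced when zinc is low, was at 12.9, 12.9, and 16.9 CPM in clone 13 and at 23.0, 19.2, and 22.6 CPM in clone 14. The cultures did not overlap, but with 19 to 36 counts per library the log2 fold change of −0.60 ± 0.29 was not called (adjusted p = 0.24 by edgeR). Of the metal uptake list (CTR1, FRE1, ZPS1, and CCC2), 3 of 4 genes could be paired, and 2 of these were called, both lower in clone 13, beside 4.62% of all genes tested that were called and lower.

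YDL218W, a gene of unknown function, was at 602, 686, and 683 CPM in clone 13 and at 382, 348, and 286 CPM in clone 14. The log2 fold change was 0.96 ± 0.12, with an adjusted p of 3.61e-05 by edgeR. YFL040W, which resembles sugar transporters, was at 341, 330, and 275 CPM in clone 13 and at 658, 446, and 393 CPM in clone 14. Its log2 fold change was −0.65 ± 0.14, with an adjusted p of 0.0053 by edgeR. Culture A of clone 14 was the highest for YFL040W as it was for the transgene, and without that culture the log2 fold change was −0.44 (adjusted p = 0.0168 by edgeR). With limma on the deposited log2(TPM + 1) values the call of YFL040W was lost, with an adjusted p of 0.0532.

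The other named genes were not called. PDR12, an exporter of weak organic acids, was at 2158, 2025, and 2087 CPM in clone 13 and at 1512, 1803, and 1785 CPM in clone 14. Its cultures did not overlap, the log2 fold change was 0.29 ± 0.09, and the adjusted p was 0.0569 by edgeR, just outside the threshold. DESeq2 gave an adjusted p of 0.0187 for it. NIT1, a nitrilase, had a log2 fold change of −0.19 ± 0.31 (adjusted p = 0.80 by edgeR) on 18.3 to 49.7 CPM in clone 13. FLO11-BSC1, related to the flocculins that coat the yeast cell surface, had 0.17 ± 0.14 (adjusted p = 0.54), and GQ67_02041 had −0.10 ± 0.16 (adjusted p = 0.79). For these 3 genes the cultures of the clones overlapped.

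The 8 named genes are part of a list of 20 that the study drew from its strains without transgenes, where the list separated GS115 from the other strains on glycerol. The list was added here after the data were seen and comes from other libraries. On its positive side 2 of 10 genes were higher and 3 were lower in clone 13, with a median log2 fold change of −0.04. On its negative side 1 of 10 was higher and 3 were lower, with a median of −0.24. Over all genes tested 3.57% were higher, 4.62% were lower, and the median was 0.00.

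Among the genes without names, those with the largest changes were picked by size, from called genes whose cultures did not overlap and that had at least 50 CPM in the higher clone. GQ67_05213 rose most by this rule, with 265, 239, and 249 CPM in clone 13 and 55.1, 74.9, and 67.9 CPM in clone 14. The log2 fold change was 1.92 ± 0.15, or 3.78-fold (adjusted p = 9.11e-08 by edgeR). GQ67_00837 was the other, with 4915, 4933, and 5189 CPM in clone 13 and 1336, 1447, and 1302 CPM in clone 14. Its log2 fold change was 1.88 ± 0.10 (adjusted p = 4.46e-10 by edgeR). The spread between cultures was small for both genes beside the gap between the clones.

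GQ67_03396 fell most, from 1221, 1422, and 1398 CPM in clone 14 to 342, 312, and 317 CPM in clone 13. The log2 fold change was −2.06 ± 0.10 (adjusted p = 3.75e-10 by edgeR), so clone 14 was 4.18-fold higher. GQ67_03653 fell from 772, 735, and 730 CPM to 197, 219, and 210 CPM, a log2 fold change of −1.84 ± 0.09 (adjusted p = 3.99e-10 by edgeR). What these 4 genes encode is not given in the tables used here.

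**Figure D3:**
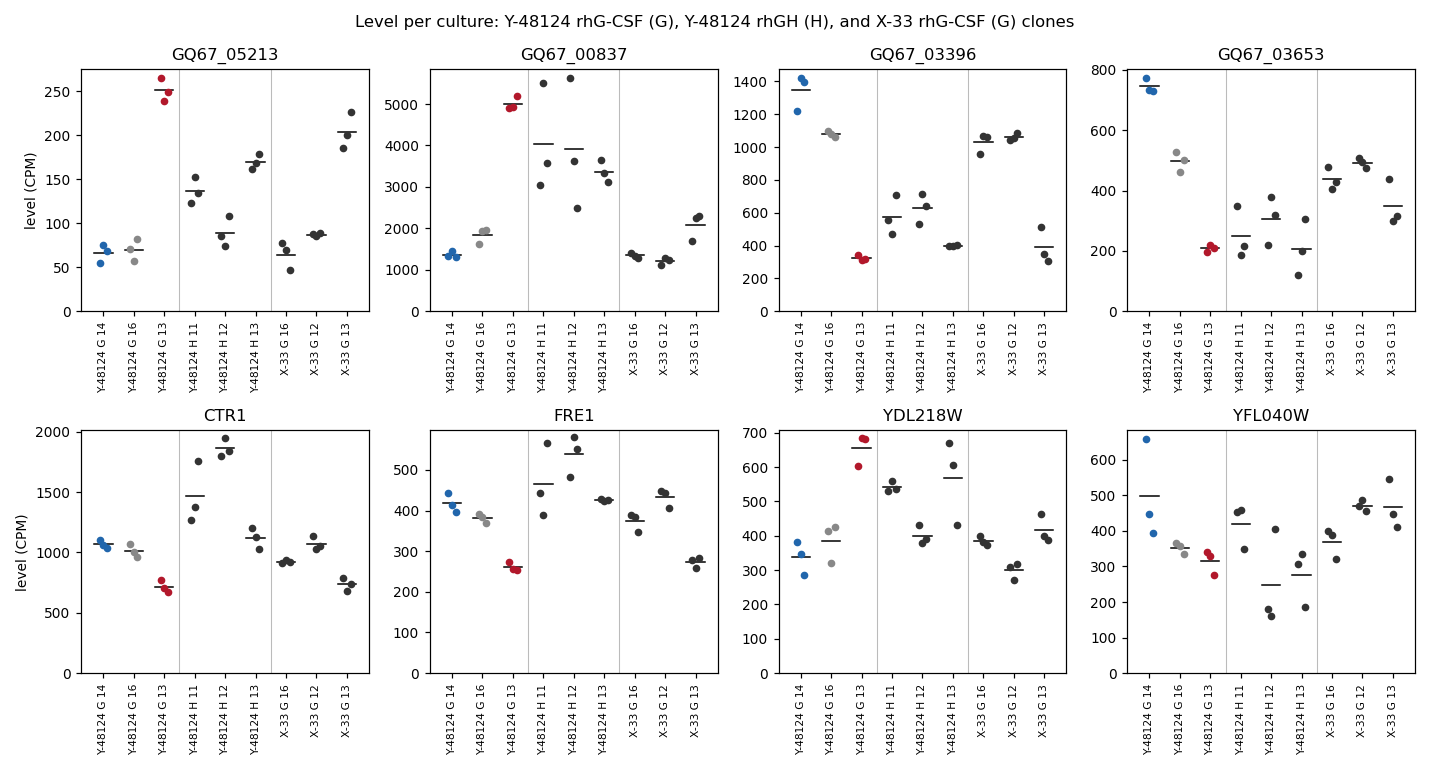
Level in CPM of the 4 unnamed genes with the largest changes among called genes without overlap and with at least 50 CPM in the higher clone, and of the 4 named genes that were called, with 1 point per culture and a line at the clone mean. The first 3 positions in each panel are the Y-48124 rhG-CSF clones 14 (blue), 16 (grey), and 13 (red), followed by the Y-48124 rhGH clones and the X-33 rhG-CSF clones, and in each of the 4 unnamed genes the cultures of clones 13 and 14 do not overlap.

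Clone 16 was next placed between the other clones. Against clone 14, clone 16 had 133 genes called (2.79%), 44 higher and 89 lower. Against clone 16, clone 13 had 438 genes called (9.2%), 234 higher and 204 lower. These comparisons share cultures with each other and with the main comparison, so their counts are set side by side only. The count for clone 16 against clone 14 was fragile. It was 34 without culture B and 64 without culture C of clone 14, and 54, 49, and 52 without cultures A, B, and C of clone 16. For clone 13 against clone 16 it was 250 without culture C of clone 13, and 267 and 288 without cultures A and C of clone 16.

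For each of the 390 genes, the mean of clone 16 on log2(CPM + 1) was set on an axis on which clone 14 is 0 and clone 13 is 1. The mean of clone 16 lay between the other means in 251 genes (64.4%), beyond clone 14 in 113, and beyond clone 13 in 26. The median place was 0.22, and 286 genes (73.3%) lay nearer to clone 14. Over all 4762 genes, 32.4% lay between, and the median place was 0.35. The median place was 0.32 for the genes that were higher in clone 13 and 0.15 for those that were lower. Because the genes were chosen for a gap between clones 13 and 14, the share between is set by that choice in part. Over all genes 55.5% lay nearer to clone 14. Among the 390 chosen genes clone 16 thus lay nearer to clone 14 in most, whereas in rhG-CSF mRNA it was nearly midway on the log2 scale. That contrast depends on the scale. By share of all counts, rhG-CSF mRNA was at 0.173% to 0.215% in clone 16, nearer to clone 14 than to clone 13.

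Single genes showed the same placing with exceptions. Clone 16 was at 70.5, 57.4, and 82.3 CPM for GQ67_05213, with cultures A and B inside the range of clone 14, and at 1616, 1943, and 1956 CPM for GQ67_00837. The places of these genes were 0.04 and 0.23. For GQ67_03653, clone 16 was at 527, 461, and 502 CPM, a place of 0.32, and the log2 fold change of clone 16 against clone 14 was −0.68 ± 0.09 (adjusted p = 0.00026 by edgeR). GQ67_03396 was at 1096, 1078, and 1061 CPM in clone 16, below clone 14 without overlap at a place of 0.15, with a log2 fold change of −0.42 ± 0.09 against clone 14 (adjusted p = 0.0201 by edgeR). CTR1 and FRE1 were at places 0.14 and 0.19, and neither was called between clones 16 and 14. PDR12 was an exception, since clone 16 was at 2773, 2606, and 2508 CPM, above both other clones, with a log2 fold change of 0.53 ± 0.09 against clone 14 (adjusted p = 0.0041 by edgeR).

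**Figure D4:**
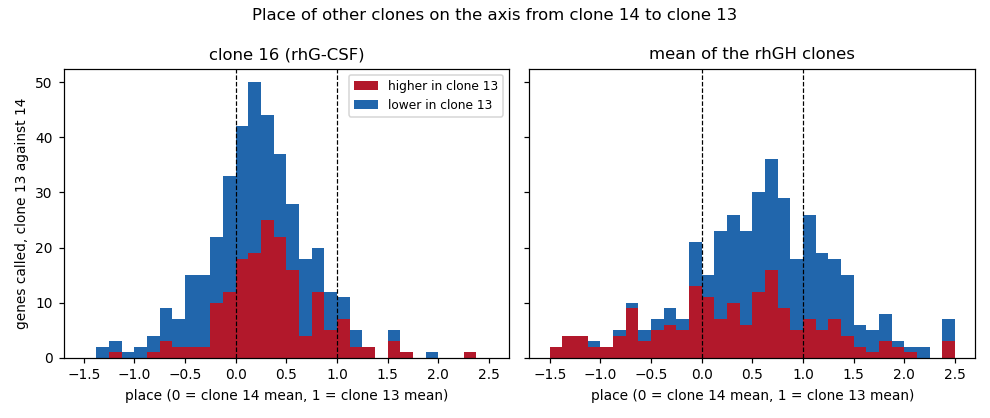
Place of clone 16 (left) and of the mean of the 3 rhGH clones (right) for the 390 genes called between clones 13 and 14, on an axis from the clone 14 mean (0) to the clone 13 mean (1), with values beyond the ends of the axis put in the outermost bars. The median place is 0.22 for clone 16 and 0.62 for the rhGH clones.

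The rhGH clones of the same strain were set beside the rhG-CSF clones as a description. They carry another product, so they cannot show which rhG-CSF clone was at an unusual level. Clone 13 differed from the mean of the rhGH clones in 464 genes (9.73%), clone 14 in 541 (11.3%), and clone 16 in 597 (12.5%), at an adjusted p under 0.05. These comparisons share the rhGH libraries, and those libraries carry another product, so their values are given next to each other only. Leaving out 1 culture lowered the counts to 280, 292, and 300 for clone 13 (without A, B, and C), to 305 and 359 for clone 14 (without A and B), and to 333 for clone 16 (without A).

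Of the 170 genes higher in clone 13 than in clone 14, 61 were higher and 7 lower in clone 13 than in the rhGH clones, and 14 were higher and 67 lower in clone 14 than in the rhGH clones. Of the 220 genes that were lower, 51 were lower and 9 higher in clone 13 than in the rhGH clones, and 84 were higher and 4 lower in clone 14. Over all 4768 genes tested, 273 were higher and 191 lower in clone 13, and 265 were higher and 276 lower in clone 14. The median log2 fold changes against the rhGH clones were 0.30 in clone 13 and −0.33 in clone 14 for the first group, and −0.24 and 0.34 for the second. The genes were chosen for a gap between clones 13 and 14 on these same libraries. Counts and medians of opposite direction against another group therefore follow from the choice and are given as a description. On the axis from clone 14 to clone 13, the mean of the rhGH clones had a median place of 0.62 over the 390 genes and of 0.57 over all genes tested. The median place was 0.36 for the 170 genes higher in clone 13 and 0.75 for the 220 lower ones, on opposite sides of the midpoint. For the single rhGH clones the median places over the 390 genes were 0.64, 0.53, and 0.68.

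The unnamed genes showed both patterns. GQ67_00837 ranged from 2487 to 5630 CPM with a median of 3581 in the 9 rhGH libraries. Clone 14 was below this range, with a log2 fold change of −1.56 ± 0.19 against the rhGH clones (adjusted p = 6.26e-06 by edgeR), and clone 13 was within it, with 0.35 ± 0.17 (adjusted p = 0.217). GQ67_03653 ranged from 119 to 379 CPM with a median of 220. Clone 14 was above this range, with a log2 fold change of 1.45 ± 0.18 (adjusted p = 6.54e-06 by edgeR), and clone 13 was within it, with −0.36 ± 0.20 (adjusted p = 0.286). For GQ67_05213, the rhGH libraries at 74.4 to 178 CPM lay below clone 13 and mostly above clone 14, overlapping it at the lower end. Clone 13 was higher by 0.91 ± 0.12 (adjusted p = 1.56e-05 by edgeR) and clone 14 lower by 1.03 ± 0.14 (adjusted p = 3.03e-05 by edgeR). GQ67_03396 was at 394 to 712 CPM in the rhGH libraries, above clone 13 and below clone 14. Clone 13 was lower by 0.77 ± 0.12 (adjusted p = 0.00015 by edgeR) and clone 14 higher by 1.27 ± 0.11 (adjusted p = 5.48e-08 by edgeR).

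For CTR1 and FRE1, clones 13 and 14 both read below the mean of the rhGH clones. CTR1 ranged from 1030 to 1947 CPM with a median of 1377 in the rhGH libraries, so that clone 13 was below that range in each culture and clone 14 at its lower end. The log2 fold changes against the rhGH clones were −1.09 ± 0.10 in clone 13 (adjusted p = 1.69e-07 by edgeR), −0.54 ± 0.10 in clone 14 (adjusted p = 0.0007), and −0.70 ± 0.10 in clone 16 (adjusted p = 3.12e-05). For FRE1, at 388 to 581 CPM in the rhGH libraries, they were −0.94 ± 0.11 in clone 13 (adjusted p = 3.4e-06 by edgeR), −0.28 ± 0.10 in clone 14 (adjusted p = 0.0852), and −0.50 ± 0.11 in clone 16 (adjusted p = 0.0022).

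X-33 provided a pair of clones that shares no library with the Y-48124 clones. X-33 rhG-CSF clone 13 had a transgene level of 13.49 ± 0.09 in log2(TPM + 1) and clone 16 a level of 10.83 ± 0.09 (SD, n = 3), a gap of 2.66 that is smaller than the 3.73 in Y-48124. These clones too were chosen by that level. By mean level X-33 clone 16 was close to Y-48124 clone 16 (10.95) and above Y-48124 clone 14 (9.11). X-33 clones 13 and 16 differed in 921 genes (19%), 489 higher and 432 lower. With all 36 rhG-CSF libraries in the fit, an alternative chosen after seeing the data, the count was 589.

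Of the 4755 genes tested in both pairs, 184 were called in both. That is 47.2% of the Y-48124 calls, beside 19% of all genes tested that were called for the X-33 pair. It is 20% of the X-33 calls, beside 8.19% of all genes tested that were called between Y-48124 clones 13 and 14. The Y-48124 calls were concentrated among abundant genes. Whether the overlap exceeds that expected for genes of similar level was not tested. Of the 184 genes, 62 were higher in the high clone of both strains, 76 were lower in both, and 46 went in opposite directions. Among the 390 genes, 274 (70.3%) had the same sign in X-33, beside 56.4% of all genes tested. The difference between the Y-48124 gap and the X-33 gap was itself called in 465 genes (9.6%), or 215 with all 36 libraries in the fit. It was called in 150 of the 390 genes (38.5%), of which 100 had opposite signs in the 2 clone pairs. In 142 of the 150 the Y-48124 change was the larger or the signs were opposite. The 390 genes were chosen for the Y-48124 gap, which is a part of this difference on the same libraries. A share above 9.6% therefore follows in part from the choice. A part of the 390 genes thus had the same sign in the X-33 pair, and another part had the opposite sign. How far the pairs differ in genes not chosen this way cannot be read from the 38.5%.

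**Figure D5:**
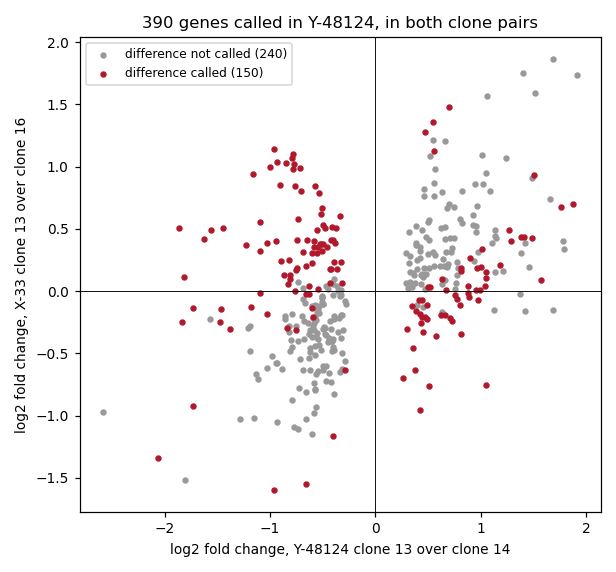
Log2 fold change in Y-48124 (clone 13 over clone 14) against that in X-33 (clone 13 over clone 16), with 1 point for each of the 390 genes called in Y-48124. Red points are the 150 genes in which the difference between the clone pairs was called, and 274 of the 390 points have the same sign on both axes.

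CTR1 and FRE1 were lower in the high clone of X-33 as well. CTR1 was at 791, 679, and 738 CPM in X-33 clone 13 and at 913, 935, and 922 CPM in X-33 clone 16. Its log2 fold change was −0.26 ± 0.08 (adjusted p = 0.0171 by edgeR). FRE1 was at 277, 258, and 284 CPM and at 388, 385, and 348 CPM, with −0.38 ± 0.09 (adjusted p = 0.0018 by edgeR). The differences between the clone pairs, −0.31 ± 0.11 for CTR1 and −0.28 ± 0.12 for FRE1, were not called (adjusted p = 0.076 and 0.152 by edgeR). The high clones of both strains had nearly the same CTR1 level, with means of 716 ± 48.7 and 736 ± 56.0 CPM (SD, n = 3).

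GQ67_05213 also rose in X-33, from 77.0, 69.5, and 46.4 CPM to 186, 200.2, and 226 CPM, a log2 fold change of 1.74 ± 0.15 (adjusted p = 6.76e-09 by edgeR). The difference between the clone pairs was 0.19 ± 0.22 and was not called (adjusted p = 0.671 by edgeR). GQ67_03396 fell in X-33 by 1.34 on the log2 scale (SE 0.12, adjusted p = 9.45e-09 by edgeR). That was a smaller change than between Y-48124 clones 13 and 14 (difference −0.71 ± 0.17, adjusted p = 0.0068 by edgeR). GQ67_00837 rose by 0.70 ± 0.10 in X-33 (adjusted p = 1.3e-05 by edgeR), also less than between those Y-48124 clones (difference 1.19 ± 0.15, adjusted p = 2.09e-06). The unnamed genes were picked for their large change between those Y-48124 clones, so a smaller change in X-33 follows in part from the choice. Between Y-48124 clones 13 and 16 the log2 fold changes were −1.65 ± 0.10 for GQ67_03396 and 1.54 ± 0.09 for GQ67_00837. GQ67_03653 was at 299 to 437 CPM in X-33 clone 13 and 404 to 479 CPM in X-33 clone 16, with a log2 fold change of −0.25 ± 0.10 that was not called (adjusted p = 0.104 by edgeR).

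X-33 clone 12, with 11.69 ± 0.05 in log2(TPM + 1) of rhG-CSF mRNA, is the intermediate of that strain. GQ67_05213 was at 87.2 ± 1.98 CPM in it, near X-33 clone 16 at 64.3 ± 15.9 and far from X-33 clone 13 at 204 ± 20.4 (SD, n = 3). GQ67_03396 was at 1062 ± 23.7 CPM in X-33 clone 12 and at 1029 ± 61.2 CPM in X-33 clone 16, against 388 ± 112 CPM in X-33 clone 13. For CTR1, X-33 clone 12 was at 1032 to 1137 CPM, above X-33 clone 16 at 913 to 935 CPM. For FRE1 it was at 406 to 448 CPM, also above X-33 clone 16 at 348 to 388 CPM. For both genes the intermediate clone of X-33 was thus the highest of the 3, which is not the order of the transgene, and this difference between X-33 clones 12 and 16 was not tested.

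Finally, the called genes were looked at in the order of their identifier numbers, which is a place in the list and not a known place in the genome. The running median of the log2 fold change over 51 genes stayed between −0.18 and 0.20, so no long stretch of the list was shifted as a whole. Of 4322 pairs of genes with neighbouring numbers, both were called in 54 (1.25%). Over all genes tested 8.19% were called, and whether 54 pairs exceed the number expected from that share was not tested. In 38 of these 54 pairs the genes moved the same way, 14 pairs being higher and 24 lower in clone 13. The sign was shared in 55.1% of all neighbouring pairs.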

How the data were processed

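Libraries were made by the authors by 3′ digital gene expression and quantified with Salmon (0.9.1, with bedtools 2.26.0 also listed in the submitters' processing notes) on K. phaffii transcripts and the transgenes. The genome build and any merging of molecular identifiers are not given in the sources used here. The count table that the authors deposited holds unnormalized whole-number counts by gene, and their second table holds log2(TPM + 1). Total counts in the 18 Y-48124 libraries ranged from 439803 to 1590521.

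The 3 transgene rows were removed, and counts were compared with edgeR 4.0.16 (R 4.3.3) after TMM normalization and filterByExpr with a minimum count of 10, 1 mean per clone, quasi-likelihood tests, and Benjamini-Hochberg adjustment over all genes tested. The 9 rhG-CSF libraries of Y-48124 formed the main fit, which removed 358 of 5120 genes. The 18 rhG-CSF libraries of Y-48124 and X-33, and the 18 libraries of Y-48124, formed the others. Standard errors were derived from the log2 fold change and its F statistic. CPM values are plain depth-scaled counts with no TMM factor. The pseudocount on log2(CPM + 1) was 1. Cultures of a clone differed by more than counting error (chi-square per degree of freedom 2.31 to 5.03). The fits were tested on simulated data.

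Of the 5120 identifiers, 0 were found in the RefSeq gene table of assembly ASM2700v1, so only the 8 named in the study's supplement carry names, and gene lists for methanol use, protein folding, and secretion were not used here. Named genes were the transgene rows, these 8 genes with GQ67_02041, and the 2 that rose and 2 that fell most among called genes without overlap and at 50 CPM or more. The clones, lists, and tests were chosen with earlier results of these data known. DESeq2 (1.42.0), limma (3.58.1), DESeq2 size factors, no filter, transgenes in the totals, the culture letter as a block, other sets of libraries, a fold threshold, and each culture left out were tried. Plots used Matplotlib 3.10.9 in Python 3.11.15.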

Additional observations from a re-analysis of the deposited data

Results flagged for a closer look

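In 8 named genes the log2 fold change in Y-48124 (clone 13 against clone 14) differed from that in X-33 (clone 13 against clone 16) by a test of the difference itself, with Y-48124 minus X-33 given here. It was 0.79 for YDL218W, −1.05 for YFL040W, 1.80 for FLO11-BSC1, −1.77 for ZPS1, 0.63 for GQ67_02041, 1.19 for GQ67_00837, −0.71 for GQ67_03396, and −1.58 for GQ67_03653. The adjusted p by edgeR was between 3.35e-08 (GQ67_03653) and 0.0481 (GQ67_02041). GQ67_00837, GQ67_03396, and GQ67_03653 were picked for their large change in Y-48124 on the same libraries. Their differences therefore follow in part from that choice. For FLO11-BSC1, ZPS1, and GQ67_02041 the call was in X-33. FLO11-BSC1 fell there by 1.61 on the log2 scale (adjusted p = 5.5e-09), ZPS1 rose by 1.17 (adjusted p = 0.0011), and GQ67_02041 fell by 0.71 (adjusted p = 0.00075), while in Y-48124 they were not called (log2 fold changes of 0.17, −0.60, and −0.10, with unadjusted p of 0.237, 0.0534, and 0.538 by edgeR). YFL040W was lower in the high clone of Y-48124 and higher, by 0.41, in that of X-33 (adjusted p = 0.0241 by edgeR).

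The rhGH transgene row held a median of 57 counts in the 9 rhG-CSF libraries of Y-48124 and the rhG-CSF row a median of 55 counts in the 9 rhGH libraries, above the 3 counts that a count of 0 allows. The shares were 0.00182% to 0.0056% and 0.00389% to 0.0112% of all counts. The source was not tested.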

How the results depend on the processing

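The sign of clone 13 against clone 14 held in each alternative for the 4 unnamed genes, CTR1, FRE1, and YDL218W, all of which also stayed below an adjusted p of 0.05. YFL040W lost its call with limma on log2(TPM + 1) (−0.60). PDR12 passed with DESeq2 size factors, DESeq2, limma on log2(CPM + 1), the replicate block, and without culture B of clone 14, over a range of adjusted p from 0.0187 to 0.411. NIT1 ranged from −0.70 to 0.063 and GQ67_02041 from −0.20 to 0.0072 when 1 culture was left out, and both turned sign without culture C of clone 13. The count of genes for clone 13 against clone 14 was between 281 and 442 in the settings without a fold threshold.

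An absolute log2 fold change above 1 in addition left 75 genes for clone 13 against 14 and 11 for clone 16 against 14. It left 86 for clone 13 against clone 16, 115 for the X-33 pair, and 137 for the difference between the clone pairs. Against the rhGH clones it left 117, 120, and 144 for clones 13, 14, and 16. The threshold by its construction takes away small changes. Clone 16 against clone 14 gave 63 genes with limma on log2(TPM + 1) and 47 with all 36 rhG-CSF libraries in the fit. With those 36 libraries the X-33 pair gave 589 and the difference between the clone pairs 215, both chosen after seeing the data. The cause of these 4 drops was not tested.

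Leaving out 1 culture gave 251 to 360 genes for clone 13 against clone 14, 34 to 168 for clone 16 against clone 14, 250 to 342 for clone 13 against clone 16, 677 to 784 for the X-33 pair, 340 to 518 for the difference, and 280 to 555, 305 to 617, and 333 to 649 for clones 13, 14, and 16 against the rhGH clones. An arm then had 2 cultures. The median place of clone 16 stayed between 0.20 and 0.26, and the running median over the wider window reached 0.15.

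Whether the letters A, B, and C pair cultures of different clones was looked at by correlation for clones 13 and 14 only. The deviations of same-lettered cultures of clones 13 and 14 correlated at −0.08, −0.08, and 0.03. With the letter as a replicate block, 442 genes were called for clone 13 against clone 14, beside 390 without the block. The block gave 166 genes for clone 16 against clone 14 (133 without it) and 465 for clone 13 against clone 16 (438 without it). Of genes with a mean below 20 CPM, 1.49% were called, against 32.9% of those above 1000 CPM.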
